A study of Homo sapiens with 9 samples.

Results

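The genes described here are those that carry a Wnt signal across the cell surface and read it out: the secreted WNT ligands, the Frizzled receptors with their co-receptors LRP5 and LRP6, the LGR receptors of R-spondins, the ligases RNF43 and ZNRF3, the secreted SFRP and DKK antagonists, the feedback gene AXIN2 and the TCF/LEF transcription factors. The family was chosen with earlier results of these data known, and its members were set by gene symbol. These were every protein-coding gene named WNT or FZD plus a number, FRZB, SFRP1 to SFRP5 and DKK1 to DKK4. LRP5, LRP6, LGR4 to LGR6, RNF43, ZNRF3, AXIN2, LEF1, TCF7, TCF7L1 and TCF7L2 were also members. Of 50 such genes in GENCODE 29, 47 were among the 36018 genes listed in the files, and 34 of these passed the filter on low counts, out of 17902 genes that did. WNT9B, DKK4 and FZD10 were not analysed here.

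RNA-seq of HCT-15, a human colorectal adenocarcinoma cell line, compared 3 groups of 3 libraries each. The CoCl2-tolerant line (HCT-15-CoCl2) and the low-glucose-tolerant line (HCT-15-Lowg) were each derived by growth in stepwise stronger exposure to CoCl2, a hypoxia mimetic, or to glucose shortage until the cells became tolerant, and the control libraries came from untreated HCT-15 cells. All 3 groups carried the same wild-type label, and culture was in RPMI1640 with 10% serum. Each tolerance was thus represented by 1 derived line, so that tolerance and the history of that line cannot be told apart, and since no label states separate cultures, the p-values measure the spread between libraries, which may be technical. A brefeldin A-tolerant line named in the protocol was not analysed here.

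In the canonical pathway a WNT ligand brings a Frizzled and LRP5 or LRP6 together, which stops the APC and AXIN complex from destroying beta-catenin; beta-catenin then enters the nucleus and turns TCF/LEF factors into activators. R-spondins bound to LGR receptors keep Frizzleds at the membrane by removing RNF43 and ZNRF3, whereas SFRPs bind ligands and DKK1 blocks the LRPs. In the intestine this signal maintains crypt stem cells. Most colorectal cancers, HCT-15 among them, carry truncated APC, which can make the pathway active below the receptors. Neither the APC sequence nor beta-catenin activity was measured in these libraries. That the cells are HCT-15 is taken from the labels and was not tested.

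Library totals ran from 25178615 to 32674687 counts, and 3 counts, the smallest number treated as a measurable level, corresponded to 0.0882 to 0.12 CPM, the read count scaled to an equal library size. Mitochondrial transcripts took 4.64 to 6.67% of counts in the CoCl2-tolerant libraries, 4.74 to 5.2% in the low-glucose-tolerant and 8.08 to 9.8% in the control libraries, and the part of this difference in the results was not tested. Low-glucose-tolerant replicate 2 stood apart from its group on the second principal component (-19.9, against -0.734 and 1.59), which held 17.1% of the variance. Intestinal identity genes were nearly absent: 11 of 14 averaged under 1 CPM in every group, CDX1 and CDX2 among them, although EPCAM averaged 21.8, 55.7 and 54.7 CPM in the CoCl2-tolerant, low-glucose-tolerant and control groups. The 5 endothelial markers summed to at most 2.06 CPM and the 6 leukocyte markers to at most 2.95 CPM in any library. In bulk RNA, fewer cells of a type and less RNA per cell cannot be told apart.

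The other 13 members had too few counts to be tested. RNF43 had 54 counts over all 9 libraries, WNT10B 53, WNT10A 43, WNT16 24, DKK2 18, WNT11 14, WNT1 12 and SFRP2 9. SFRP5, WNT2 and WNT3A had 2 counts each, and WNT7A and WNT8A had 1 each. The members just inside the filter were WNT6 with 73 counts, WNT8B with 93, LEF1 with 108 and FZD8 with 110. Of the 18 WNT ligands in the files, 9 were thus tested, as were all 9 Frizzleds, 3 of 5 SFRP genes, 2 of 3 DKK genes and both LRP co-receptors.

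In the CoCl2-tolerant line most of the changes were losses: against control, 18 of the 34 members were lower and 3 higher, while of all tested genes 18.2% were lower and 17.9% higher. WNT2B, LGR5 and SFRP1 fell furthest, and FZD1, WNT5B and WNT9A were the members that were higher. The low-glucose-tolerant line had 17 members lower and 9 higher against control, where 34.6% of all tested genes were lower and 34.6% higher. SFRP1, AXIN2 and LGR5 fell by over 10-fold, whereas LEF1, LGR6 and DKK1 were higher by over 10-fold. WNT6, LGR5, LEF1 and FZD8 passed the filter only through the group in which each was highest (control for WNT6 and LGR5, low-glucose-tolerant for LEF1 and FZD8), so that their differences from that group are given as descriptions. Among the other 30 tested members, 16 were lower and 3 higher in CoCl2-tolerant cells, and 15 lower and 7 higher in low-glucose-tolerant cells. The median log2 fold change of the 34 tested members was -0.45 in the CoCl2-tolerant line and -0.33 in the low-glucose-tolerant line, beside 0.01 and -0.01 over all genes. Both medians include WNT6, LGR5, LEF1 and FZD8. Between the lines, 13 members were higher and 12 lower in CoCl2-tolerant than in low-glucose-tolerant cells, with 31.9% and 32.0% of all genes. Calls were made at adjusted p under 0.05 (edgeR, Benjamini-Hochberg, all tested genes). The comparisons against control share the control libraries and are not independent. Without low-glucose-tolerant replicate 2, 17 members were lower and 9 higher in that line against control. In the CoCl2-tolerant line the 18 losses became 12 without control replicate 3.

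**Figure D1:**
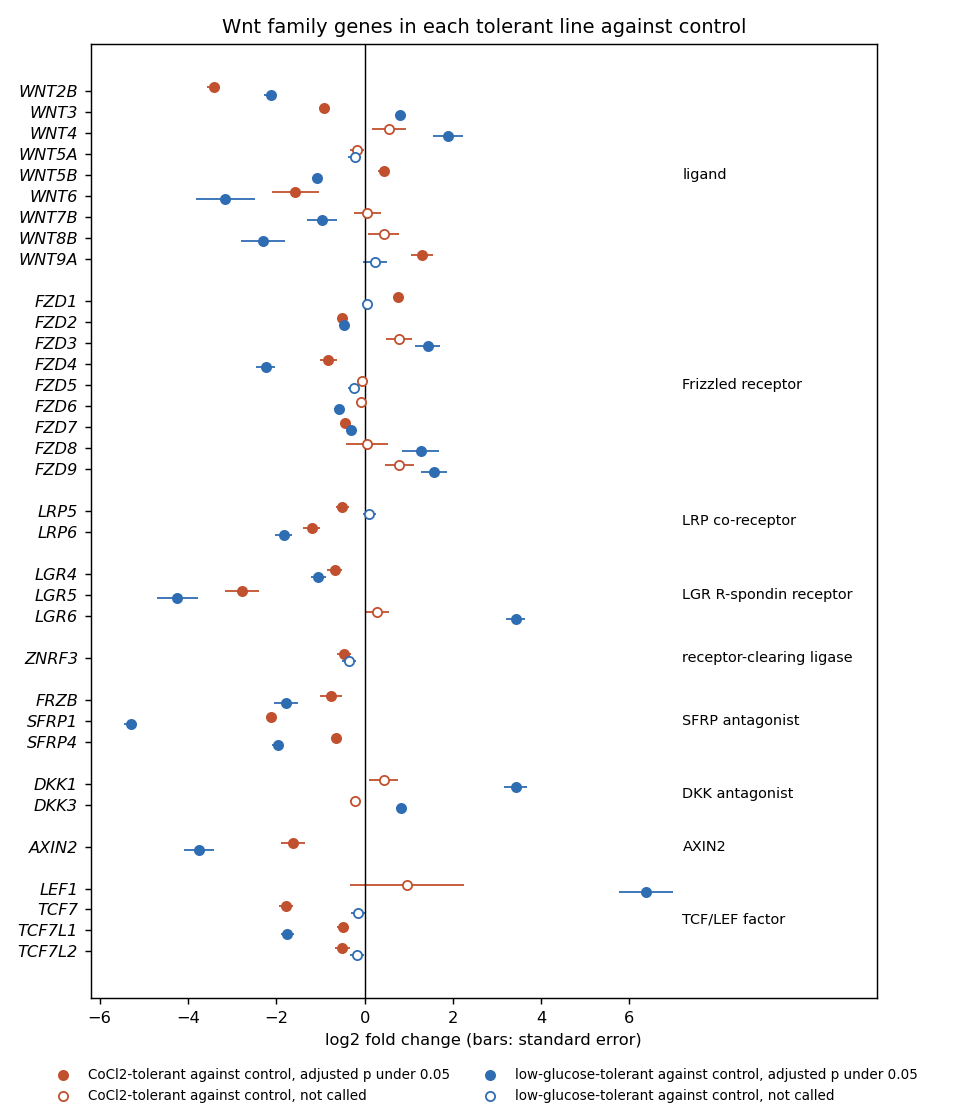
Log2 fold change of each of the 34 tested members in the CoCl2-tolerant line and in the low-glucose-tolerant line against control, grouped by role; bars are standard errors, filled points passed adjusted p under 0.05 and open points did not. SFRP1, SFRP4, FRZB, LRP6, LGR4, LGR5 and AXIN2 lie left of 0 in both lines, and LEF1, LGR6 and DKK1 lie far to the right in the low-glucose-tolerant line.

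Among the ligands, WNT2B, a canonical ligand also made by gut mesenchyme, was the most strongly reduced in the CoCl2-tolerant line. It had 11.5, 12.2 and 9.92 CPM in CoCl2-tolerant, 23.6, 33.2 and 25 CPM in low-glucose-tolerant and 118, 121 and 119 CPM in control libraries. The 3 groups did not overlap. Among all tested genes, 57.2% had no overlap of libraries between CoCl2-tolerant and control and 73.3% between low-glucose-tolerant and control. Between the lines the share was 63.1%. A lack of overlap between 2 groups, here and for the members below, was thus common to most tested genes. WNT2B fell by 3.42 ± 0.15 on the log2 scale (SE), or 10.7-fold, in CoCl2-tolerant cells (edgeR adjusted p = 1.62e-09). In low-glucose-tolerant cells its log2 fold change was -2.13 ± 0.14 (adjusted p = 6.44e-09). It was also lower in CoCl2-tolerant than in low-glucose-tolerant cells, by a log2 fold change of -1.28 ± 0.14 (adjusted p = 1.97e-06). The gene lies at chr1:112466541-112530165 on the plus strand (GRCh38), and 21.2% of its exon bases also lie in exons of ST7L on the other strand. ST7L averaged 11.8, 15.4 and 14.2 CPM in the CoCl2-tolerant, low-glucose-tolerant and control groups. The sources used here do not say whether the counting used strand, so reads of the shared bases cannot be assigned to either gene.

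WNT5B, a ligand of the non-canonical branch, was the most abundant ligand. It had 239, 184 and 209 CPM in CoCl2-tolerant, 75.1, 63.3 and 83.6 CPM in low-glucose-tolerant and 157, 160 and 152 CPM in control libraries. It was higher in CoCl2-tolerant cells (log2 fold change 0.43 ± 0.12, edgeR adjusted p = 0.0141) and 2.11-fold lower in low-glucose-tolerant cells (-1.08 ± 0.12, adjusted p = 2.86e-06). The small rise in CoCl2-tolerant cells was no longer called without control replicate 1, control replicate 3 or CoCl2-tolerant replicate 1 (adjusted p 0.0519 to 0.0603). WNT3, a canonical ligand of mouse Paneth cells, had the opposite order, with means of 8.69 ± 1.04, 28.3 ± 1.53 and 16.3 ± 0.916 CPM (SD, n = 3 each) in CoCl2-tolerant, low-glucose-tolerant and control cells. Its log2 fold changes were -0.91 ± 0.12 (adjusted p = 6.93e-05) and 0.80 ± 0.12 (adjusted p = 3.25e-05). WNT5A, the close relative of WNT5B, averaged 12.2 ± 1.84, 11.8 ± 2 and 13.8 ± 0.489 CPM and was called in neither line.

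Of the scarcer ligands, WNT9A, known from joint development, was higher in CoCl2-tolerant cells, with 2.77, 2.0 and 2.19 CPM, against 0.986, 1.13 and 1.19 CPM in low-glucose-tolerant and 1.01, 1.18 and 0.603 CPM in control libraries. The CoCl2-tolerant libraries lay above all others (2.47-fold over control, edgeR adjusted p = 0.00117). WNT4, a ligand of kidney and reproductive tract development, was higher in low-glucose-tolerant cells, with 1.22, 1.95 and 2.53 CPM, against 0.650, 0.441 and 0.445 CPM in control libraries. The CoCl2-tolerant libraries held 0.923, 0.455 and 0.883 CPM, overlapping with control. WNT4 differed 3.7-fold between low-glucose-tolerant and control cells (adjusted p = 1.65e-04) and was not called in CoCl2-tolerant cells (adjusted p = 0.274). WNT6, WNT7B and WNT8B stayed under 1 CPM in every library. WNT6 had 15, 5 and 53 counts in the CoCl2-tolerant, low-glucose-tolerant and control groups; its loss in CoCl2-tolerant cells (adjusted p = 0.0329) ended without any 1 of the 3 control libraries or without CoCl2-tolerant replicate 1 or 2 (adjusted p 0.0667 to 0.114). In low-glucose-tolerant cells WNT6 had a log2 fold change of -3.15 (edgeR adjusted p = 6.75e-04). This was -2.58, -2.89 and -4.70 without low-glucose-tolerant replicate 1, 2 and 3. WNT6 passed the filter on low counts only through the control libraries, so its differences from control are descriptions. WNT8B had 46, 7 and 40 counts and was lower in low-glucose-tolerant cells (adjusted p = 8.53e-04) and not called in CoCl2-tolerant cells (adjusted p = 0.357). WNT7B averaged 0.767, 0.372 and 0.731 CPM, and its call in low-glucose-tolerant cells (adjusted p = 0.0203) ended without control replicate 3 or low-glucose-tolerant replicate 2 (adjusted p 0.0724 to 0.102).

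Levels per kb of exon describe how the ligand pool was made up. The length used was that of all annotated exons of a gene merged, 12561 bases for WNT2B, 4305 for WNT5B and 4334 for WNT3. The lengths of the transcripts present were not measured, and the shares depend on this choice. In CPM, without lengths, WNT2B averaged 119.8 and WNT5B 156 in control libraries. The 9 tested ligands summed to 48.5 to 61.1 CPM per kb in CoCl2-tolerant, 25.9 to 30.6 in low-glucose-tolerant and 51.2 to 53.4 in control libraries. WNT5B held 88.2 to 90.7% of that sum in CoCl2-tolerant, 56.7 to 63.5% in low-glucose-tolerant and 68.9 to 69.4% in control libraries. WNT2B held 1.44 to 2.01%, 6.51 to 10.2% and 17.9 to 18.6%, and WNT3 a mean of 3.68%, 23.1% and 7.17%, in the same order of groups. The summed ligand level thus overlapped between CoCl2-tolerant and control libraries, while the ranges of the WNT5B and WNT2B shares did not.

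**Figure D2:**
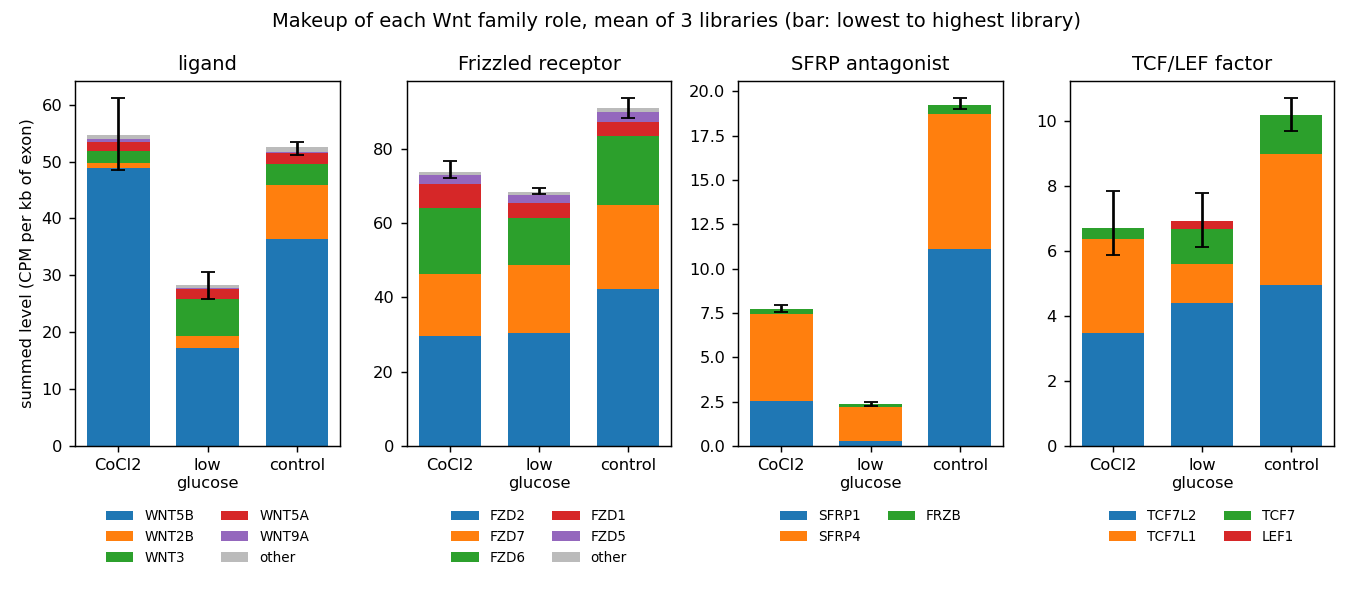
Summed level of the tested ligands, Frizzleds, SFRP antagonists and TCF/LEF factors in CPM per kb of exon, stacked by gene as the mean of 3 libraries; black bars run from the lowest to the highest library sum. WNT5B fills most of the CoCl2-tolerant ligand column, and the SFRP column of control libraries (19.0 to 19.6) stands above those of the CoCl2-tolerant (7.55 to 7.97) and low-glucose-tolerant libraries (2.27 to 2.50).

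FZD1 was higher in CoCl2-tolerant cells, and FZD2 and FZD7 were lower in both lines. FZD2, FZD7 and FZD6 made up most of the Frizzled sum, which ran from 72.0 to 76.7 CPM per kb in CoCl2-tolerant, 67.7 to 69.4 in low-glucose-tolerant and 88.3 to 93.5 in control libraries. FZD2 averaged 62.5 ± 5.05, 64.2 ± 4.01 and 89.0 ± 3.81 CPM (SD, n = 3 each) and was lower in both lines, by log2 fold changes of -0.51 in CoCl2-tolerant (edgeR adjusted p = 0.00177) and -0.47 in low-glucose-tolerant cells (adjusted p = 0.00101). FZD7, a Frizzled of mouse intestinal stem cells, averaged 64.1, 70.9 and 87.1 CPM, with log2 fold changes of -0.44 and -0.30; the second was not called without control replicate 2 or 3 or with no filter (edgeR adjusted p 0.057 to 0.0916). FZD6 averaged 72.7, 51.4 and 76.6 CPM and fell in low-glucose-tolerant cells (log2 fold change -0.58, adjusted p = 4.93e-04). FZD1 averaged 43.6 ± 3.44, 26.6 ± 1.87 and 25.7 ± 1.43 CPM and was 1.69-fold higher in CoCl2-tolerant cells (adjusted p = 1.28e-04). FZD5 averaged 16.8, 14.6 and 17.3 CPM and was called in neither line.

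FZD4, which also binds the non-WNT ligand norrin, had 2.85, 3.75 and 4.59 CPM in CoCl2-tolerant, 1.70, 1.27 and 1.19 CPM in low-glucose-tolerant and 5.62, 7.35 and 6.80 CPM in control libraries. The groups did not overlap. It fell by 0.82 ± 0.19 on the log2 scale in CoCl2-tolerant (edgeR adjusted p = 0.00419) and by 2.24 ± 0.21 in low-glucose-tolerant cells (adjusted p = 3.54e-07). PRSS23, a protease gene on the other strand that shares 18.9% of the exon bases of FZD4, averaged 524, 167 and 723 CPM in the CoCl2-tolerant, low-glucose-tolerant and control groups, in the same order as FZD4; its part in the FZD4 counts was not tested.

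FZD3, a receptor of planar polarity, and FZD9 were higher in low-glucose-tolerant cells. FZD3 had 1.57, 1.30 and 0.918 CPM in CoCl2-tolerant, 2.34, 1.88 and 1.70 CPM in low-glucose-tolerant and 0.715, 0.500 and 0.985 CPM in control libraries. FZD9 had 0.843, 0.595 and 0.636 CPM in CoCl2-tolerant, 1.05, 1.16 and 1.34 CPM in low-glucose-tolerant and 0.455, 0.265 and 0.476 CPM in control libraries. The low-glucose-tolerant libraries lay above control for both genes (log2 fold change 1.43 ± 0.28 for FZD3, edgeR adjusted p = 3.79e-04, and 1.57 ± 0.30 for FZD9, adjusted p = 2.91e-04). In CoCl2-tolerant cells neither passed (adjusted p = 0.0537 and 0.0697), although FZD3 did without control replicate 3 or CoCl2-tolerant replicate 3, with no filter or in a fit of those 2 groups only (adjusted p 0.0339 to 0.0479). Between the lines FZD3 was lower in CoCl2-tolerant cells at adjusted p = 0.043, a call that ended under 9 alternatives (adjusted p 0.0509 to 0.175): DESeq2, library totals, the stricter filter, the fit of 2 groups and without control replicate 1, CoCl2-tolerant replicate 2 or 3 or low-glucose-tolerant replicate 1 or 2. FZD9 was lower there too (adjusted p = 0.0247), a call that ended with DESeq2 and without CoCl2-tolerant replicate 2 or 3 or low-glucose-tolerant replicate 3 (0.0551 to 0.09). FZD8 had 24, 59 and 27 counts in the CoCl2-tolerant, low-glucose-tolerant and control groups. It passed the filter on low counts only through the low-glucose-tolerant libraries, so its higher level there is a description. The edgeR call against control (adjusted p = 0.0146) ended without control replicate 1 or 2 or low-glucose-tolerant replicate 1 (adjusted p 0.054 to 0.0613).

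LRP6, one of the 2 co-receptors, was lower in both lines. It had 54.6, 60.9 and 55.3 CPM in CoCl2-tolerant, 33.5, 51.7 and 25.5 CPM in low-glucose-tolerant and 128, 137 and 129 CPM in control libraries. Every library of both lines lay below every control library, and low-glucose-tolerant replicate 2 was the highest of its group. LRP6 fell 2.3-fold in CoCl2-tolerant (edgeR adjusted p = 2.06e-04) and 3.55-fold in low-glucose-tolerant cells (adjusted p = 9.41e-07). The log2 fold change in low-glucose-tolerant cells was -1.83, and -1.75, -2.14 and -1.61 without low-glucose-tolerant replicate 1, 2 and 3. The difference between the lines, a log2 fold change of 0.62, was 0.94 without low-glucose-tolerant replicate 2 and 0.41 without replicate 3. LRP5 averaged 34.3 ± 7.1, 52.2 ± 7.26 and 48.4 ± 1.38 CPM (SD, n = 3 each) and was lower in CoCl2-tolerant cells (log2 fold change -0.50, adjusted p = 0.0157). That call ended without control replicate 2 or 3 or CoCl2-tolerant replicate 2 or 3 (adjusted p 0.0515 to 0.0831). Per kb of exon, LRP6 made up a mean of 50%, 29.2% and 61.7% of the co-receptor sum in CoCl2-tolerant, low-glucose-tolerant and control libraries.

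Of the 3 LGR receptors, which bind R-spondins, LGR4 and LGR5 were lower in both lines and LGR6 was higher in low-glucose-tolerant cells. LGR5, the intestinal stem cell marker and itself a Wnt target gene, was near the detection limit outside control cells, with 0.161, 0.210 and 0.318 CPM in CoCl2-tolerant, 0.136, 0.103 and 0 CPM in low-glucose-tolerant and 1.82, 1.53 and 1.49 CPM in control libraries. These were 19, 7 and 155 counts in all. CoCl2-tolerant libraries lay 6.95-fold below control (95% counting interval 4.30 to 11.9) and low-glucose-tolerant libraries 19.9-fold below (9.42 to 50.3), with edgeR adjusted p of 7.73e-05 and 1.39e-06. LGR5 passed the filter on low counts only through the control libraries, so its differences from control are descriptions. LGR6, a stem cell marker of mouse skin, ran the other way in low-glucose-tolerant cells, with 5.13, 6.24 and 5.72 CPM there, against 0.422, 0.588 and 0.572 CPM in control libraries. The CoCl2-tolerant libraries held 0.682, 0.770 and 0.494 CPM. LGR6 was thus 10.7-fold higher in low-glucose-tolerant cells than in control (adjusted p = 5.74e-09) and was not called in CoCl2-tolerant cells (adjusted p = 0.433). LGR4, the broadly expressed receptor, had 15.7, 22 and 20.4 CPM in CoCl2-tolerant, 17.8, 16.6 and 10.6 CPM in low-glucose-tolerant and 31.1, 32.2 and 30 CPM in control libraries, below control in every library of both lines. Its log2 fold changes were -0.68 ± 0.17 (adjusted p = 0.00687) and -1.05 ± 0.17 (adjusted p = 8.44e-05). Per kb of exon, LGR6 made up 4.45%, 35.0% and 2.16% of the summed LGR level on average. ZNRF3, the ligase that clears Frizzleds, averaged 21.6, 23.4 and 30 CPM in the 3 groups. It was called lower in CoCl2-tolerant cells (adjusted p = 0.0288), a call that ended without control replicate 2 or 3 or CoCl2-tolerant replicate 1 or 3 (0.0546 to 0.118), and it was not called in low-glucose-tolerant cells (adjusted p = 0.0538). There it was called under 5 alternatives (adjusted p 0.0011 to 0.0491): library totals, no filter, the stricter filter, the replicate block and without low-glucose-tolerant replicate 2.

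**Figure D3:**
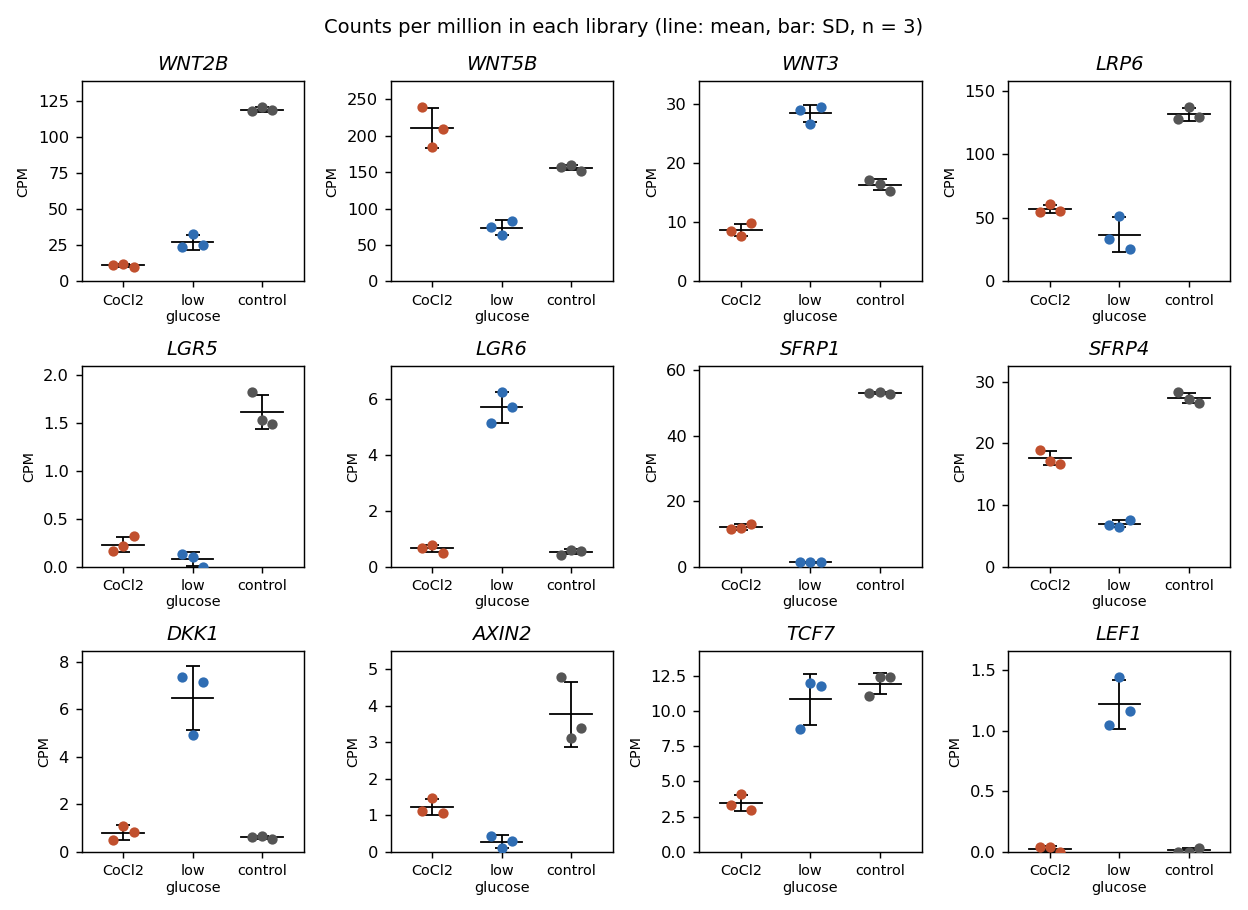
CPM of 12 members in each library of the CoCl2-tolerant, low-glucose-tolerant and control groups, with the mean as a line and the SD as a bar (n = 3 each). SFRP1 and LGR5 are highest in control libraries, LGR6, DKK1 and LEF1 are highest in low-glucose-tolerant libraries, and TCF7 is lowest in CoCl2-tolerant libraries.

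All 3 tested SFRP genes, whose products bind WNT ligands outside the cell, were lower in both lines. Of all tested genes, 18.2% were lower in the CoCl2-tolerant and 34.6% in the low-glucose-tolerant line against control. SFRP1 had 11.4, 11.9 and 13.0 CPM in CoCl2-tolerant, 1.29, 1.47 and 1.27 CPM in low-glucose-tolerant and 53.1, 53.2 and 52.7 CPM in control libraries. It fell 4.38-fold in CoCl2-tolerant (edgeR adjusted p = 1.11e-08) and 39.3-fold in low-glucose-tolerant cells (adjusted p = 4.93e-12), and differed 8.98-fold between the lines (adjusted p = 2.46e-10). SFRP4 had 18.9, 17.2 and 16.7 CPM in CoCl2-tolerant, 6.80, 6.51 and 7.60 CPM in low-glucose-tolerant and 28.3, 27.2 and 26.6 CPM in control libraries. The 3 groups of SFRP4 values did not overlap, as those of SFRP1 did not (log2 fold change -0.64 ± 0.11, adjusted p = 5.65e-04, and -1.97 ± 0.12, adjusted p = 3.29e-09). FRZB, also known as SFRP3, had 1.08, 0.945 and 0.812 CPM in CoCl2-tolerant, 0.510, 0.480 and 0.398 CPM in low-glucose-tolerant and 1.92, 1.29 and 1.62 CPM in control libraries. Its loss was called in low-glucose-tolerant cells (-1.78 ± 0.27, adjusted p = 3.45e-05). In CoCl2-tolerant cells it was called too (-0.76 ± 0.24, adjusted p = 0.0237), but not without control replicate 1 or 3 or CoCl2-tolerant replicate 2 or 3 (adjusted p 0.0604 to 0.119).

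SFRP1, SFRP4 and WNT2B are also known as genes of stromal cells. COL1A1 and THY1, of 8 fibroblast markers, had the same order of groups as SFRP1 and SFRP4, but not that of WNT2B. The summed CPM of the 8 ran from 644 to 749.9 in CoCl2-tolerant, 156 to 196 in low-glucose-tolerant and 2491 to 2532 in control libraries, nearly all of it COL1A1 (250.1, 21.5 and 1855 CPM) and THY1 (445, 147 and 642 CPM). The other 6 did not have the order of SFRP1. PDGFRB averaged 1.67, 5.55 and 5.80 CPM in CoCl2-tolerant, low-glucose-tolerant and control cells. Its means had the order of WNT2B (11.2, 27.3 and 119.8 CPM), although its low-glucose-tolerant and control libraries overlapped. COL1A2 averaged 0.365, 1.88 and 1.63 CPM in the same groups. COL3A1, DCN, LUM and FAP averaged under 1 CPM in all 3 groups, and DCN was higher in low-glucose-tolerant cells (0.625 CPM, against 0.0420 CPM in control; edgeR adjusted p = 1.42e-05). The part of the fibroblast markers in these results was not tested.

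Both tested DKK genes were higher in low-glucose-tolerant cells, where 34.6% of all tested genes were higher than in control. DKK1, which blocks LRP5 and LRP6 and is itself a Wnt target gene, had 0.482, 1.09 and 0.848 CPM in CoCl2-tolerant, 7.34, 4.90 and 7.16 CPM in low-glucose-tolerant and 0.617, 0.647 and 0.540 CPM in control libraries. Low-glucose-tolerant libraries lay above all others, by 10.7-fold over control (log2 fold change 3.42 ± 0.26, edgeR adjusted p = 3.61e-08), while it was not called in CoCl2-tolerant cells (0.43 ± 0.32, adjusted p = 0.31). DKK1 lies at chr10:52314296-52318042 on the plus strand, and 9.61% of its exon bases are shared with PRKG1-AS1 on the other strand, which averaged 0.10, 0.803 and 0.101 CPM in the CoCl2-tolerant, low-glucose-tolerant and control groups; its part in the DKK1 counts was not tested. DKK3, a divergent DKK that is not known for blocking LRPs, averaged 191 ± 24.8, 391 ± 27.9 and 222 ± 1.13 CPM (SD, n = 3 each). It was 1.77-fold higher in low-glucose-tolerant cells (adjusted p = 1.37e-05). In CoCl2-tolerant cells it was not called (adjusted p = 0.153), except without CoCl2-tolerant replicate 1 (0.0399).

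AXIN2, the feedback scaffold of the destruction complex and a widely used readout of canonical signalling, had 1.12, 1.47 and 1.06 CPM in CoCl2-tolerant, 0.442, 0.103 and 0.289 CPM in low-glucose-tolerant and 4.78, 3.12 and 3.40 CPM in control libraries. The groups did not overlap. It fell by 1.62 ± 0.27 on the log2 scale in CoCl2-tolerant (edgeR adjusted p = 4.03e-04) and by 3.74 ± 0.34 in low-glucose-tolerant cells (adjusted p = 2.44e-07), and was higher in CoCl2-tolerant than in low-glucose-tolerant cells (2.12 ± 0.38, adjusted p = 2.44e-04). Without low-glucose-tolerant replicate 2, the lowest library, these last 2 values were -3.33 and 1.71. The low-glucose-tolerant group held 24 counts in all, against 360 in control, a 13.5-fold difference (95% counting interval 8.91 to 21.3). Of its exon bases, 25.2% lie in another annotated gene on the same strand.

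Among the TCF/LEF factors, TCF7 was lower in CoCl2-tolerant cells, and TCF7L1 fell and LEF1 rose in low-glucose-tolerant cells. TCF7, which encodes TCF1, had 3.29, 4.13 and 3.0 CPM in CoCl2-tolerant, 8.73, 12 and 11.8 CPM in low-glucose-tolerant and 11.1, 12.4 and 12.4 CPM in control libraries. It was 3.44-fold lower in CoCl2-tolerant cells (edgeR adjusted p = 1.95e-06) and was not called in low-glucose-tolerant cells (adjusted p = 0.399). TCF7L1, known mainly as a repressor, had 12.5, 14.8 and 11 CPM in CoCl2-tolerant, 5.06, 5.69 and 5.21 CPM in low-glucose-tolerant and 15.5, 17.9 and 20.3 CPM in control libraries. It fell 3.36-fold in low-glucose-tolerant cells (adjusted p = 1.29e-07). Its smaller loss in CoCl2-tolerant cells (log2 fold change -0.49, adjusted p = 0.0153) was not called without control replicate 2 or 3 or CoCl2-tolerant replicate 3 (adjusted p 0.0503 to 0.0919). TCF7L2, the main TCF of intestinal epithelium, averaged 23.5 ± 4.72, 29.7 ± 5.15 and 33.3 ± 0.881 CPM (SD, n = 3 each). It was called in CoCl2-tolerant cells (-0.50, adjusted p = 0.0213), but not without any 1 of the control libraries or CoCl2-tolerant replicate 1 (adjusted p 0.0527 to 0.0802).

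LEF1, the TCF/LEF member that is absent from normal colon epithelium but present in many colon cancers, was measurable in the low-glucose-tolerant line and under 3 counts per group elsewhere. It had 0.0401, 0.0350 and 0 CPM in CoCl2-tolerant, 1.05, 1.44 and 1.16 CPM in low-glucose-tolerant and 0, 0 and 0.0318 CPM in control libraries, or 2, 105 and 1 counts in all. The ratio of low-glucose-tolerant to control was 117, with a 95% counting interval of 20.5 to 4662, with an edgeR adjusted p of 4.51e-07. LEF1 passed the filter on low counts only through the low-glucose-tolerant libraries, so this difference is a description. The fitted log2 fold change was 6.38. It was 5.97 without control replicate 1, 5.90 without control replicate 2 and 8.15 without control replicate 3, which held the only control count. LEF1-AS1, which shares 5.2% of the exon bases of LEF1 on the other strand, had 6 counts over all libraries. Per kb of exon, LEF1 made up 2.88 to 3.53% of the TCF/LEF sum in low-glucose-tolerant libraries, where TCF7L2 held 58.1 to 67.6%.

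The sequences just upstream of 4 of these genes are shown because DKK1 and LEF1 were higher in low-glucose-tolerant cells and WNT2B and SFRP4 were lower in both lines. They come from RefSeq (GRCh38.p14), 250 bases before to 50 after the annotated start, read 5′ to 3′ on the strand of the gene. DKK1 is chr10:52314031-52314330 (plus strand) and LEF1 chr4:108166252-108166551 (minus strand), with TCF/LEF words (CTTTGAA or CTTTGAT, on either strand) in capitals. WNT2B is the second of its 2 annotated starts, chr1:112508715-112509014 (plus strand), and SFRP4 is chr7:37916768-37917067 (minus strand), with hypoxia response words (ACGTG or GCGTG, on either strand) in capitals.
DKK1: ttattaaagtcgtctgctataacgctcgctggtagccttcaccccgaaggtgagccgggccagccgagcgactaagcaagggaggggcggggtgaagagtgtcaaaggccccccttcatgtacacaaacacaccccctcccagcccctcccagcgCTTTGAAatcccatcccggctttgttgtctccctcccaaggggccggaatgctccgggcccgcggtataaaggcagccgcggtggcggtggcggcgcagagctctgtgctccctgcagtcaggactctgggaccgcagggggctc
LEF1: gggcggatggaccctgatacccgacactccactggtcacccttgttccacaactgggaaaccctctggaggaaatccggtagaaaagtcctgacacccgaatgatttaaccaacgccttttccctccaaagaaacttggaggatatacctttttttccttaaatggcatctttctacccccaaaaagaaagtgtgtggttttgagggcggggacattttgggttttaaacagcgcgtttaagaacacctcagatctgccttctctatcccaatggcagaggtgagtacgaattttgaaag
WNT2B: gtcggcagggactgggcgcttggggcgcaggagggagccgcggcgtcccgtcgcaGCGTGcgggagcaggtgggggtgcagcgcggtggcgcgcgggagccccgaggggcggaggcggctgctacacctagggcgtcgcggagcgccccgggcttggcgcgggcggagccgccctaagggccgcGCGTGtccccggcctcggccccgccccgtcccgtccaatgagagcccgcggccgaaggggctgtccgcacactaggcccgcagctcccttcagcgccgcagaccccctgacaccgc
SFRP4: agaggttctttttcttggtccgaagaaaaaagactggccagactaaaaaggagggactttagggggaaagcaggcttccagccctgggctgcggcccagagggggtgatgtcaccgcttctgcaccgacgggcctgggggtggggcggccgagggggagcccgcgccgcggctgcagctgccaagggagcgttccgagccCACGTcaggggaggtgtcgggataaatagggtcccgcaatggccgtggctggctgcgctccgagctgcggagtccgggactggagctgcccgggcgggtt
The DKK1 window held 1 TCF/LEF word, which began at position 156 of the window, and the LEF1 window held none. The WNT2B window held 2 hypoxia response words and the SFRP4 window 1. The first WNT2B start, at chr1:112466291-112466590, held neither kind. The table covered 42 start sites of 33 members; AXIN2, LGR5, LRP6 and SFRP1 were not among these. A TCF/LEF word was present in 1 of these 42 windows (2.38%), against 6.86% of all 35116 windows of that length, and a hypoxia response word in 18 (42.9%), against 48.4% of all windows. Among the 31 windows of members that passed the filter on low counts, 1 held a TCF/LEF word (3.23%) and 10 a hypoxia response word (32.3%). No word of one kind contains one of the other, and a match of letters is a description of the sequence and not evidence of binding.

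Beyond the ligands and receptors, 82 further genes of the pathway were tested, from lists arranged by role. In CoCl2-tolerant cells 14 were higher (17.1%) and 29 lower (35.4%), where 17.9% of all tested genes were higher and 18.2% lower. In low-glucose-tolerant cells 30 were higher and 30 lower (36.6% each), near the 34.6% of all genes in each direction. Of 13 other Wnt receptors and planar polarity genes, 11 were lower and 0 higher in CoCl2-tolerant cells (84.6% lower, against 18.2% of all genes), with a median log2 fold change of -0.55. In low-glucose-tolerant cells 9 were lower and 1 higher (69.2% lower, against 34.6% of all genes), with a median of -1.15. In CoCl2-tolerant cells CELSR2 averaged 16.5 ± 1.41 CPM, against 71.2 ± 2.46 CPM in control (SD, n = 3 each; edgeR adjusted p = 5.46e-06), and its fellow atypical cadherins CELSR3 and CELSR1 and the polarity protein VANGL2 had log2 fold changes of -0.97, -0.74 and -0.80. In low-glucose-tolerant cells the glypican GPC4 averaged 16.8 ± 1.19 CPM, against 241 ± 0.728 CPM in control (adjusted p = 5.59e-12). There ROR2, a receptor for WNT5A, had a log2 fold change of -3.25, CELSR2 of -2.59 and PRICKLE2, another polarity protein, of -2.21. Exons on the other strand share 25.2% of the exon bases of PRICKLE2, and their part in its counts was not tested.

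Of 22 dishevelled and destruction complex genes, 2 were higher and 2 lower in CoCl2-tolerant cells (9.09% each, below the 17.9% and 18.2% of all genes). In low-glucose-tolerant cells 10 were higher (45.5%) and 5 lower (22.7%), beside 34.6% of all genes in each direction. APC, the scaffold of the complex, averaged 41.1 ± 7.42, 11.4 ± 2.91 and 48.4 ± 3.36 CPM in CoCl2-tolerant, low-glucose-tolerant and control cells (SD, n = 3 each), with a log2 fold change of -2.08 in low-glucose-tolerant cells (edgeR adjusted p = 1.34e-07). AXIN1, the constitutive counterpart of AXIN2, averaged 38.8 ± 5.17, 112 ± 8.14 and 31.9 ± 0.881 CPM, with 1.82 (adjusted p = 7.33e-09) in low-glucose-tolerant cells. AXIN1 and AXIN2 thus had called changes of opposite sign in that line. APC2, a relative of APC, had a log2 fold change of 1.67 and TNKS, the tankyrase that destabilises axins, of 1.05. CTNNB1, beta-catenin itself, averaged 407, 255 and 469 CPM and was lower in low-glucose-tolerant cells (-0.88, adjusted p = 3.88e-06). APC, AXIN1 and CTNNB1 were not called in CoCl2-tolerant cells (adjusted p = 0.292, 0.0686 and 0.14). There AMER1, a membrane recruiter of the complex, and the dishevelled DVL3 had log2 fold changes of -0.74 and -0.45, and the kinase CSNK1E and the phosphatase subunit PPP2R1A of 0.41 and 0.40.

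Of 5 genes of ligand secretion and processing, 2 were higher and 2 lower in CoCl2-tolerant cells (40% each, beside 17.9% and 18.2% of all genes), and 1 was higher and 3 lower in low-glucose-tolerant cells (20% and 60%, beside 34.6% each). WLS, which carries ligands to the surface, had log2 fold changes of 0.38 in CoCl2-tolerant and 0.77 in low-glucose-tolerant cells. PORCN, which acylates them, had 0.46 in CoCl2-tolerant cells. The ligand-inactivating enzymes had negative log2 fold changes: NOTUM -1.90 in CoCl2-tolerant and -1.57 in low-glucose-tolerant cells, TRABD2A -1.27 and -0.58, and TRABD2B -0.89 in low-glucose-tolerant cells. Among 7 other secreted modulators and receptor partners, 1 was higher (14.3%) and 3 lower (42.9%) in CoCl2-tolerant cells, beside 17.9% and 18.2% of all genes. In low-glucose-tolerant cells 1 was higher (14.3%) and 4 lower (57.1%), beside 34.6% each. TPBG, a membrane inhibitor, averaged 55.5 ± 2.72, 16.5 ± 1.52 and 82.3 ± 0.606 CPM (SD, n = 3 each), and DRAXIN, a secreted axon guidance factor that also binds LRP6, averaged 2.03 ± 0.439 CPM in low-glucose-tolerant cells, against 0.175 ± 0.072 CPM in control (edgeR adjusted p = 2.04e-06). KREMEN1, a DKK1 receptor, had log2 fold changes of -0.72 and -0.35, and the secreted SERPINF1 of -0.63 in low-glucose-tolerant cells. The R-spondin genes RSPO3 and RSPO4 had 15 and 4 counts over all libraries.

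Of 21 tested genes known as TCF targets, 6 were higher (28.6%) and 7 lower (33.3%) in CoCl2-tolerant cells, beside 17.9% and 18.2% of all genes, with a median log2 fold change of -0.12. In low-glucose-tolerant cells 8 were higher and 8 lower (38.1% each), near the 34.6% of all genes in each direction, with a median of 0.09. MYC, the growth regulator, averaged 135 ± 7.33, 353 ± 26.4 and 73.9 ± 4.89 CPM in CoCl2-tolerant, low-glucose-tolerant and control cells (SD, n = 3 each), higher in both lines (edgeR adjusted p = 2.32e-05 and 4.18e-10). CCND1, cyclin D1, averaged 441, 494 and 195 CPM, also higher in both (adjusted p = 1.65e-06 and 6.50e-08). The adhesion receptor CD44 and the dishevelled inhibitor NKD2 had log2 fold changes of 2.34 and 4.07 in low-glucose-tolerant cells, and the AP-1 factor FOSL1 of 1.29 in CoCl2-tolerant cells. BMP4, a growth factor, was lower in both lines, at 3.95 ± 0.239, 1.49 ± 0.317 and 14.6 ± 0.815 CPM (adjusted p = 3.61e-07 and 5.28e-10), and PROM1, the stem cell antigen CD133, had -1.75 in CoCl2-tolerant cells. Of 15 nuclear co-factors, 3 were higher (20%) and 5 lower (33.3%) in CoCl2-tolerant cells, beside 17.9% and 18.2% of all genes. In low-glucose-tolerant cells 9 were higher (60%) and 2 lower (13.3%), beside 34.6% each. The co-repressor TLE2 had a log2 fold change of -1.60, the co-activator BCL9 of -0.71 and the beta-catenin inhibitors CTNNBIP1 and CHD8 of -0.69 and -0.50 in CoCl2-tolerant cells. CTBP2, CBY1 and TLE1, co-repressors or inhibitors of beta-catenin, had log2 fold changes of 0.90, 0.84 and 0.67 in low-glucose-tolerant cells. Exons on the other strand share 34.7% of the exon bases of CTBP2 and 44.8% of those of CBY1. The part of these overlaps in the counts was not tested.

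**Figure D4:**
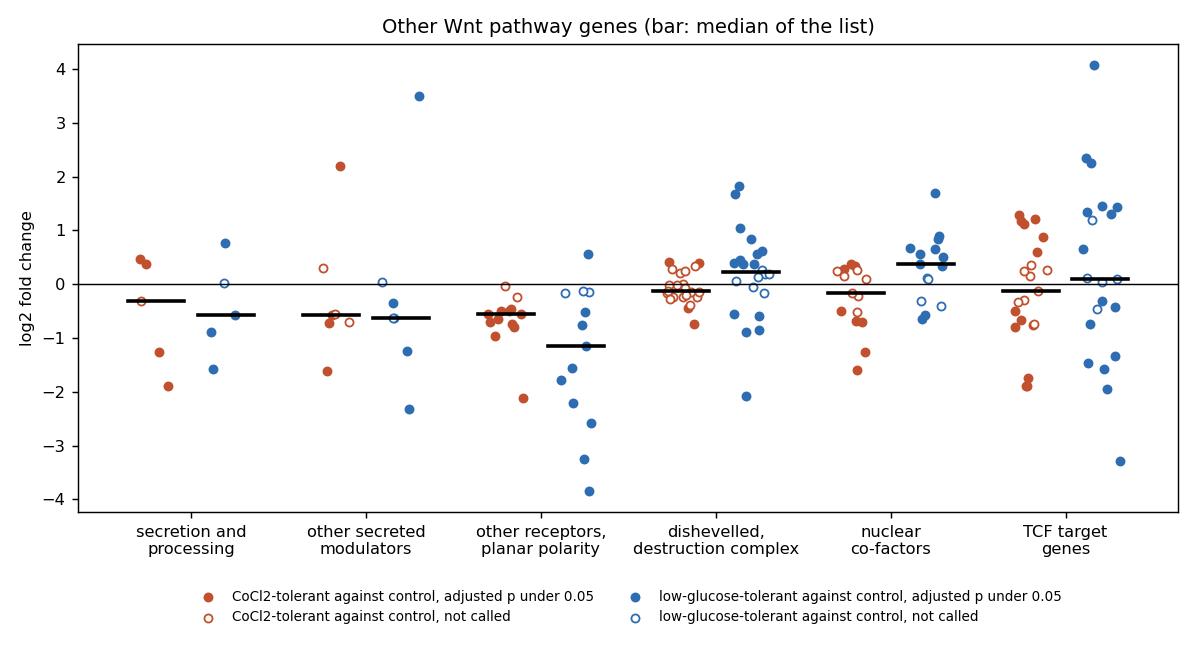
Log2 fold change of the further pathway genes against control, by role, for the CoCl2-tolerant and low-glucose-tolerant lines; each point is a gene, filled where adjusted p was under 0.05, and black bars are list medians. The points of other receptors and planar polarity genes lie mostly below 0 (medians -0.55 and -1.15), and the target genes spread on both sides of it.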

How the data were processed

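Fragmented mRNA of 9 libraries was sequenced on an Illumina NovaSeq instrument, per the labels' protocols. Each deposited file holds whole-number counts per Ensembl gene, made by the authors with featureCounts on GRCh38, per the submitters' processing notes. DESeq2 is also named there. Not given in the sources used here were the aligner, tool versions, annotation and strandedness. Unstranded counting could mix genes that share exon bases, so overlaps were computed from GENCODE 29, which also gave positions and exon lengths. Gene symbols matched 35938 of 36018 IDs.

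Counts were tested with edgeR 4.0.16 (R 4.3.3): TMM scaling, filterByExpr by group, glmQLFit over all 9 libraries and Benjamini-Hochberg adjustment over 17902 genes, with calls at adjusted p under 0.05. The common biological coefficient of variation was 12.6%, and the 3 groups shared their estimate of spread. Libraries of a group differed by unlike amounts. Chi-squared per degree of freedom, which rises with spread beyond counting error, was 2.28 to 6.79 between control libraries. It was 8.1 to 31.3 between CoCl2-tolerant and 26 to 70.6 between low-glucose-tolerant libraries. The p-values thus do not follow the spread of each group. CPM are TMM-scaled. Counting intervals are exact (95%) and cover counting error only. The procedure was tested on simulated data. In these the groups shared the same spread per gene and few genes changed. The unequal spread and the many changed genes of the real libraries were thus not covered. Alternatives were DESeq2 1.42.0, other scalings and filters, a fit of 2 groups only, a replicate block and leaving out each library.

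Members over 1 CPM with a called change of at least 2-fold against control, and WNT2B, SFRP1, LEF1 and AXIN2, are given per library; of each further pathway list, up to 4 called genes per comparison with the largest change and at least 1 CPM, plus CTNNB1, APC, AXIN1, MYC and CCND1, are named, except where a gene is not reported here. The members and lists were chosen with earlier results of these data known. Replicate numbers did not pair libraries: correlations of deviations from group means ran from -0.26 to 0.124 for the same number and from -0.242 to 0.205 for other numbers.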

Additional observations from a re-analysis of the deposited data

Results flagged for a closer look

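WNT5B and WNT3 were each called in opposite directions in the 2 tolerant lines against control, and the difference between the lines was called in the direct test. WNT5B had 239, 184 and 209 CPM in CoCl2-tolerant and 75.1, 63.3 and 83.6 CPM in low-glucose-tolerant libraries, beside 157, 160 and 152 CPM in control libraries (CoCl2-tolerant over low-glucose-tolerant log2 fold change 1.51 ± 0.13, SE; edgeR adjusted p = 1.38e-07). WNT3 had 8.59, 7.70 and 9.78 CPM in CoCl2-tolerant and 29, 26.6 and 29.4 CPM in low-glucose-tolerant libraries, beside 17.2, 16.5 and 15.3 CPM in control libraries (log2 fold change -1.70 ± 0.12, SE; adjusted p = 3.24e-08). The 3 groups did not overlap for either gene, while between pairs of groups 57.2 to 73.3% of all tested genes had no overlap.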

How the results depend on the processing

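No count of called members or of further pathway genes moved by more than 1.5 times under any alternative. Over all alternatives, members lower in CoCl2-tolerant cells ran from 12 to 18 and higher from 2 to 4; in low-glucose-tolerant cells lower ran from 15 to 19 and higher from 8 to 9; between the lines 12 to 15 were higher and 10 to 13 lower in CoCl2-tolerant cells. Further pathway genes called ran from 33 to 53 in CoCl2-tolerant cells, 56 to 63 in low-glucose-tolerant cells and 38 to 53 between the lines. With a replicate block, 18 members were lower and 3 higher in CoCl2-tolerant cells, 18 lower and 9 higher in low-glucose-tolerant cells, and 13 higher and 12 lower between the lines; the further pathway genes called were 42, 63 and 46. The block added the ZNRF3 call in low-glucose-tolerant cells and changed no other call of a member. Of 72 called results of single members, 58 kept the call under every alternative run and 14 lost it under at least 1; of 30 not called, 8 were called under at least 1. These tallies include WNT6, LGR5, LEF1 and FZD8, which passed the filter on low counts only through the group in which each was highest. No direction of a called member turned round. Members of few counts (WNT6, LEF1, LGR5, WNT8B, FZD8) are limited by depth.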
